A study of Mus musculus with 16 samples.

Results

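The RNA levels of 10 genes of transforming growth factor β (TGF-β) signalling were examined in naïve and Treg-cultured CD4+ T cells of wild type (WT) and Aim2-/- mice. The genes were the ligand Tgfb1, the receptors Tgfbr1, Tgfbr2 and Tgfbr3, the signal transducers Smad2, Smad3 and Smad4, the inhibitory Smad7, and the corepressors Ski and Skil. They were chosen by symbol, and all 10 were found among the 53090 genes of the deposited tables. Aim2 encodes a cytosolic DNA sensor. The study compared splenic naïve CD4+ T cells (Tn), which were isolated and not cultured, with CD4+ T cells kept for 48 h under Treg conditions (Treg), that is, with antibodies to CD3 and CD28, recombinant human TGF-β and recombinant mouse IL-2. Each state was sequenced in WT C57BL/6 mice and in Aim2-/- mice on the same background, which are deficient in Aim2 in all cells, with 4 libraries in each of the 4 groups and 16 libraries in all. The culture differs from the Tn state in receptor stimulation, TGF-β, IL-2 and time at once, and the effects of these cannot be told apart here. The labels do not say which animals a library came from, so p-values measure the spread between the libraries.

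Active TGF-β binds the type II receptor encoded by Tgfbr2, which recruits and phosphorylates the type I receptor encoded by Tgfbr1. The type I receptor then phosphorylates SMAD2 and SMAD3, which join SMAD4 and enter the nucleus. SMAD7 blocks the type I receptor, SKI and SKIL (SnoN) hold SMAD complexes in a repressed state, and betaglycan, encoded by Tgfbr3, presents ligand to the type II receptor. In CD4+ T cells this pathway restrains activation and, together with IL-2 and receptor stimulation, induces Foxp3, the lineage factor of regulatory T cells.

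The libraries held from 22516424 to 34533316 counts. Levels are given as CPM, a gene's count per fixed total with TMM scaling between libraries, and the floor of measurement, 3 counts, lay between 0.087 and 0.133 CPM. The lowest count of any of the 10 genes in any library was 491 and the highest was 19007, so all of them lay far above the floor and all passed the filter on low counts in every comparison. Intervals and floors cover counting error and the spread between libraries only, as the reads carried no molecular identifiers. Aim2 was at 32.3 to 38.0 CPM in WT Tn and at 6.61 to 9.26 CPM in Aim2-/- Tn, and at 35.7 to 43.3 and 7.17 to 10.8 CPM in the respective Treg groups, so the RNA was lower in the knockout but still present. Foxp3 was at 1.98 to 4.02 CPM in the Tn libraries and at 278.5 to 573.7 CPM in the Treg libraries. Of the other Treg markers listed, Il2ra was at 2.66 to 4.70 CPM in Tn and at 1300 to 1513 CPM in Treg. Ikzf2 was at 2.66 to 3.68 and at 3.41 to 14.7 CPM, and Ctla4 at 12.8 to 80.6 and at 55.1 to 84.2 CPM. The Tn and Treg libraries thus overlapped for Ikzf2 and Ctla4. The 5 CD4 T cell markers Cd3e, Cd3g, Cd4, Trac and Lck summed to at least 1622 CPM in every library, while 5 B cell markers summed to at most 2.27 CPM, with Ms4a1 at 0 throughout, and 2 CD8 T cell markers to at most 12.2 CPM. The 5 erythroid and 5 platelet markers summed to at most 7.75 and 4.85 CPM, and the 5 myeloid markers, mostly Cst3, to between 24.8 and 46.1 CPM, all 3 with their highest values in Tn. The part of these cells in the results was not tested. In bulk RNA, fewer cells of a type and less RNA per cell cannot be told apart.

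Libraries of WT Tn stood apart from each other by replicate number. The counts of replicates 1 and 2 differed from those of replicates 3 and 4 with a chi-square of 73.6 to 94.6 per degree of freedom, against 11.5 to 13.6 within either pair. The labels give no reason for this split. Ccr7, which guides naïve cells to lymph nodes, was at 1382 and 1565 CPM in WT Tn replicates 1 and 2 but at 411.2 and 418.7 CPM in replicates 3 and 4, and the checkpoint gene Ctla4 was at 79.6 and 80.0 CPM against 12.8 and 17.6 CPM. In Aim2-/- Treg the chi-square was 21.7 to 49.6 per degree of freedom across the pairs, against 10.4 to 13.6 within either pair. Culture results in both genotypes are therefore given below also for the pairs of replicates where these differed in call or by more than 0.3 on the log2 scale.

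The Treg culture was associated with a reordering of the receptors: Tgfbr1 rose about as steeply as Smad7 fell, while Tgfbr2 and Tgfbr3 fell, and Smad2 differed little. By edgeR (quasi-likelihood test, Benjamini-Hochberg adjusted over all genes tested), 7 of the 10 genes passed an adjusted p of 0.05 in WT, with 2 higher and 5 lower in Treg, and 7 passed in Aim2-/- cells, with 3 higher and 4 lower. The culture changed most of the transcriptome, however, and the same threshold was passed by 76.9% of genes in WT (37.7% higher, 39.2% lower) and by 79.3% in Aim2-/- cells (39.1% higher, 40.2% lower). The share of these 10 genes was thus near the background and is no result about them as a set. Likewise, the Tn and Treg libraries did not overlap for 7 of the 10 genes in WT, against 72.9% of all genes, and for 6 in Aim2-/- cells, against 74.8%. The median absolute log2 fold change of the 10 genes was 0.82 in WT and 0.91 in Aim2-/- cells, beside 0.94 and 0.97 over all genes.

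**Figure D1:**
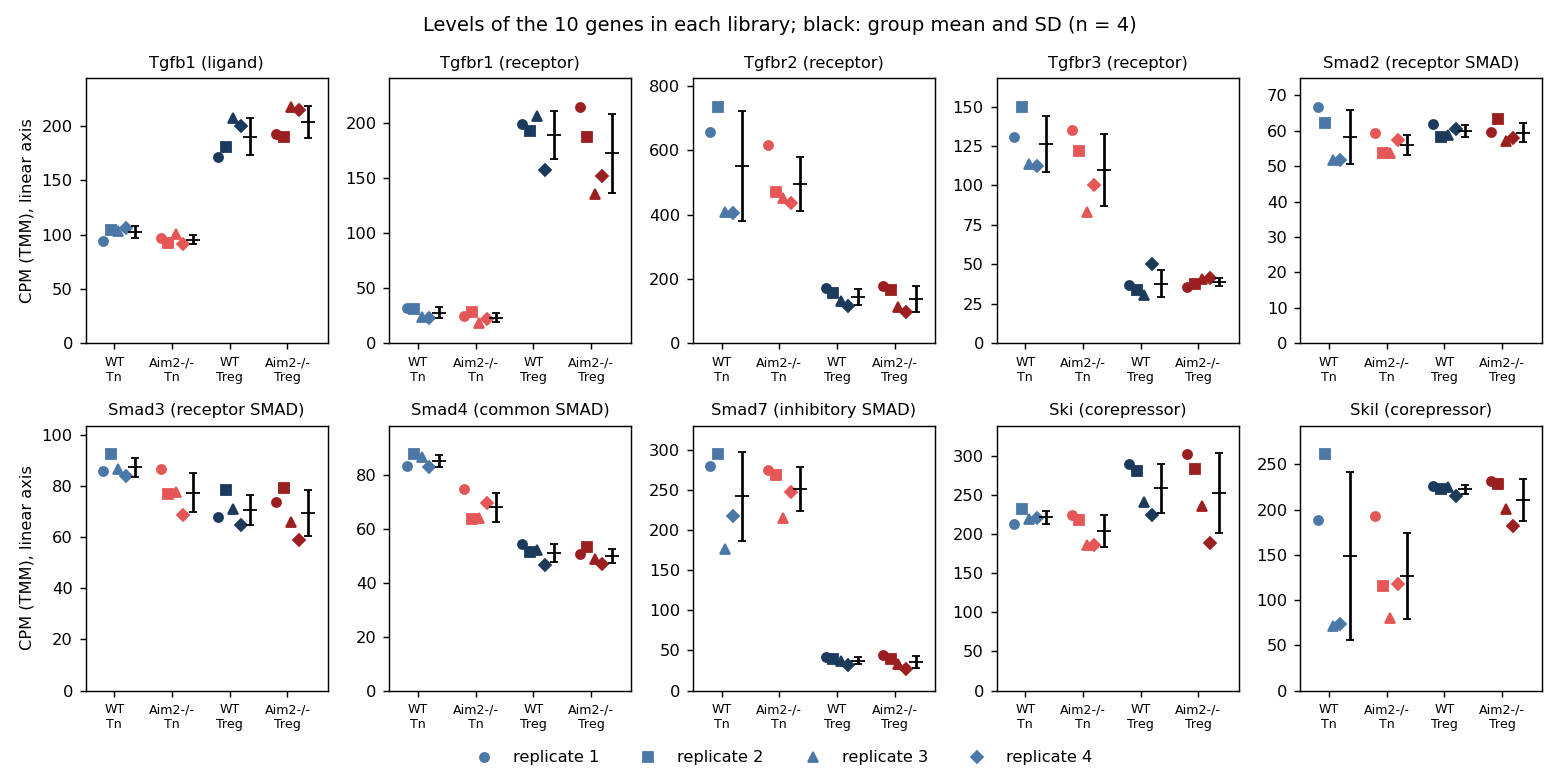
Each panel plots one of the 10 genes as CPM with TMM scaling on a linear axis from 0, by group, with one symbol per library (its shape gives the replicate number) and the group mean with its SD (n = 4) in black. Tgfbr1 and Tgfb1 sit higher in all Treg libraries than in all Tn libraries and Tgfbr2, Tgfbr3, Smad4 and Smad7 lower, while Skil is spread from 71.3 to 261.6 CPM within WT Tn alone.

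Tgfb1 (chromosome 7, 25687002 to 25705077, plus strand of GRCm38), which encodes the main TGF-β ligand of lymphocytes, was higher after culture. It was at 94.6, 104.5, 103.6 and 106.5 CPM in WT Tn replicates 1 to 4 and at 171.8, 180.3, 207.6 and 200.3 CPM in WT Treg. Aim2-/- cells had 96.9, 92.6, 100.3 and 91.7 CPM in Tn and 192.4, 189.5, 217.5 and 214.8 CPM in Treg. All 8 Treg libraries exceeded all 8 Tn libraries. The rise was 1.82-fold in WT (log2 fold change 0.86, SE 0.08, adjusted p 4.78e-06, edgeR) and 2.12-fold in Aim2-/- cells (1.08, SE 0.08, adjusted p 1.274e-07).

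Tgfbr1 (chromosome 4, 47353222 to 47414931, plus strand), the type I receptor that carries the signal to SMAD2 and SMAD3, showed the largest rise of the 10 genes in both genotypes. Its level was 32.2, 31.6, 23.7 and 23.2 CPM in WT Tn and 199.6, 192.4, 206.8 and 157.9 CPM in WT Treg. Values of Aim2-/- cells were 24.8, 28.6, 18.4 and 22.2 CPM in Tn and 214.8, 187.3, 135.6 and 152.4 CPM in Treg. The states were separated by a wide gap, since the lowest Treg library was more than 100 CPM above the highest Tn library. The rise was 6.69-fold in WT (log2 fold change 2.74, SE 0.14, adjusted p 1.14e-07) and 7.28-fold in Aim2-/- cells (2.86, SE 0.18, adjusted p 8.612e-08). Of all genes tested, 93.0% had a lower log2 fold change in WT and 93.5% in Aim2-/- cells.

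Tgfbr2 (chromosome 9, 116084293 to 116175360, minus strand), the type II receptor that binds the ligand, moved in the opposite direction. In WT it was at 656.9, 734.1, 407.6 and 404.4 CPM in Tn and at 171.8, 157.0, 130.5 and 115.9 CPM in Treg. The Aim2-/- libraries were at 617.1, 470.0, 451.7 and 437.1 CPM in Tn and at 177.4, 166.9, 112.1 and 96.7 CPM in Treg. Every Treg library lay below every Tn library, although replicates 1 and 2 of WT Tn were well above replicates 3 and 4. The level was 3.91-fold lower in WT Treg (log2 fold change -1.97, SE 0.23, adjusted p 3.173e-05) and 3.60-fold lower in Aim2-/- Treg (-1.85, SE 0.20, adjusted p 1.087e-05). With WT replicates 1 and 2 alone the log2 fold change was -2.07, and with replicates 3 and 4 alone it was -1.76, both past the threshold. The same pairs of Aim2-/- replicates gave -1.69 and -2.12, also both past it.

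Tgfbr3 (chromosome 5, 107106570 to 107289629, minus strand), the co-receptor betaglycan, also fell. WT values were 130.4, 149.8, 113.3 and 112.2 CPM in Tn and 36.7, 33.8, 30.4 and 50.1 CPM in Treg, and Aim2-/- values were 135.0, 121.6, 83.3 and 100.1 CPM in Tn and 35.9, 37.9, 40.9 and 41.5 CPM in Treg. The Tn and Treg libraries did not overlap. It was 3.42-fold lower in WT (log2 fold change -1.78, SE 0.16, adjusted p 5.123e-06) and 2.84-fold lower in Aim2-/- cells (-1.51, SE 0.14, adjusted p 1.213e-06). In 14 of the 16 libraries its expected count was not whole, so some reads were shared with other genes, and 3 short gene models lie within it on the same strand, so its level is less certain than that of the other genes. With WT replicates 1 and 2 alone the log2 fold change was -1.98 and with replicates 3 and 4 alone -1.53, both past the threshold. The same pairs of Aim2-/- replicates gave -1.83 and -1.19, also both past it.

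Because Tgfbr1 and Tgfbr2 encode partners in one receptor and moved in opposite directions, their promoter sequences are shown. They are RefSeq windows on GRCm38.p6 from 250 bases before to 50 bases after the transcription start, read 5′ to 3′ on the strand of the gene. Capitals mark the letters CAGAC, the core of the element that SMAD3 and SMAD4 are known to bind, which was searched on both strands (GTCTG on the other) and is present in 49.6% of 32851 promoter windows of this length. The Tgfbr1 window is chr4:47352972-47353271 and the Tgfbr2 window is chr9:116175314-116175613.
Tgfbr1: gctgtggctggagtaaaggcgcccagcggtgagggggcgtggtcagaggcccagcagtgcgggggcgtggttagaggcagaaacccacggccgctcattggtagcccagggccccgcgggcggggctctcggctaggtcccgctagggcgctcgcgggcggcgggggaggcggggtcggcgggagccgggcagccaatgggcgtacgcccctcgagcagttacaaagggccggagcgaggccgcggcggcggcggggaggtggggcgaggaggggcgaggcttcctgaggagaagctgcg
Tgfbr2: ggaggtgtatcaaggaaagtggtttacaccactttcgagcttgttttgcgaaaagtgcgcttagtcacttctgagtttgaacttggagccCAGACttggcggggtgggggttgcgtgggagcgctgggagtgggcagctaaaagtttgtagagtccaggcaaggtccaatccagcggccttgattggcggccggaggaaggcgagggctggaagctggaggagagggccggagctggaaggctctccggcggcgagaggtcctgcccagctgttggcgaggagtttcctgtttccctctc
The Tgfbr1 window held no CAGAC and had a GC content of 74.7%, and the Tgfbr2 window held 1 CAGAC, at base -160 from the start, with a GC content of 59.0%. A further RefSeq window of Tgfbr1, at chr4:47385966-47386265, held 1 CAGAC at base -203, and the windows of Tgfb1, Ski and Smad3 held none. The palindrome GTCTAGAC, found in 0.213% of all windows, was in none of these 6. The letters GGCGC, also searched on both strands, are present in 36.9% of all windows. They occurred 3 times in the first Tgfbr1 window, 7 times in that of Ski and 2 times in that of Tgfb1. Matches on either strand were counted separately, so GGCGCC, which the first Tgfbr1 window and that of Ski hold, counts as 2 overlapping matches. The windows of Tgfbr2 and Smad3 and the further window of Tgfbr1 held 0. These are matches of letters and not measured binding.

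**Figure D2:**
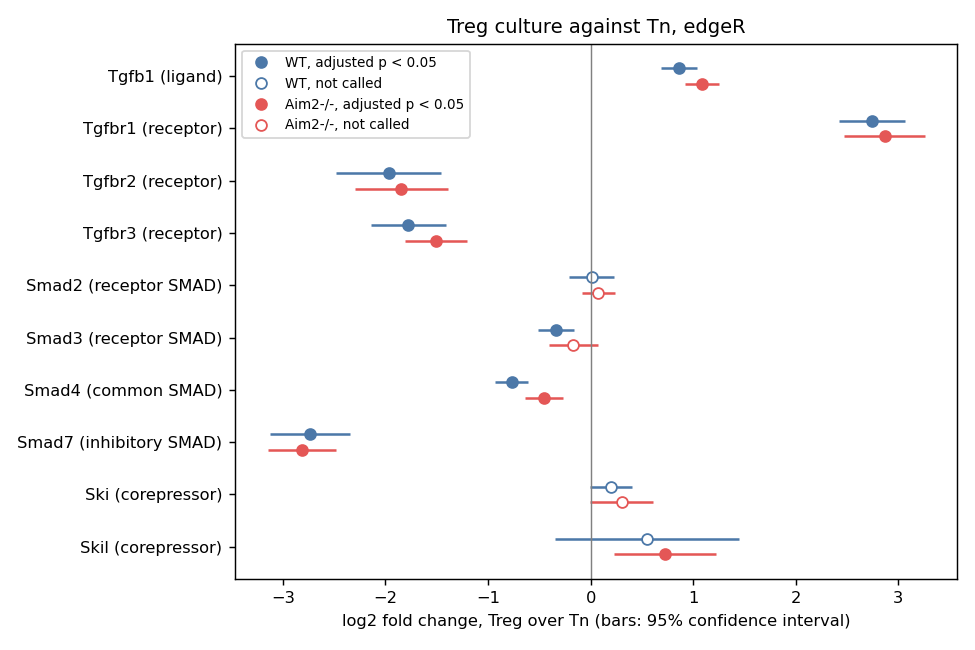
The log2 fold change of Treg over Tn (horizontal axis) is plotted for each of the 10 genes in WT (blue) and Aim2-/- cells (red), with bars for the 95% confidence interval from the edgeR fit and filled points for adjusted p under 0.05. Tgfbr1 lies near 2.8 and Smad7 near -2.8 in both genotypes, and Smad2 lies at 0.01 and 0.08 with intervals that cross 0.

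Among the receptor-activated SMADs, Smad2 was level across the 4 groups and Smad3 was slightly lower in culture. Smad2 (chromosome 18) was at 66.7, 62.3, 51.7 and 51.7 CPM in WT Tn and at 62.0, 58.2, 58.6 and 60.5 CPM in WT Treg, and the groups overlapped. Its range in Aim2-/- cells was from 53.6 to 59.3 CPM in Tn and from 57.1 to 63.2 CPM in Treg. Treg over Tn gave a log2 fold change of 0.01 in WT (SE 0.10, 95% interval -0.21 to 0.23, adjusted p 0.9238) and 0.08 in Aim2-/- cells (SE 0.07, interval -0.09 to 0.24, adjusted p 0.3657). Changes of more than 1.18-fold in either direction therefore lay outside the intervals of Aim2-/- cells. A correction for GC content and length turned these values to -0.16 and -0.19, and the second then passed the threshold, with an adjusted p of 0.02043.

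Smad3 (chromosome 9, 63646767 to 63757994, minus strand) was at 85.9, 92.5, 86.6 and 83.8 CPM in WT Tn and at 67.8, 78.4, 71.0 and 64.9 CPM in WT Treg, with no overlap. Aim2-/- cells had 86.8, 76.7, 77.6 and 68.5 CPM in Tn and 73.7, 79.1, 65.9 and 58.8 CPM in Treg, and these overlapped. On the log2 scale the change was -0.34 in WT (SE 0.08, adjusted p 0.002565) and -0.17 in Aim2-/- cells (SE 0.11, 95% interval -0.40 to 0.07, adjusted p 0.1719). Although the gene passed the threshold in one genotype only, the difference between the genotypes did not (interaction 0.15, SE 0.13, unadjusted p 0.2821). In Aim2-/- cells it passed without Tn replicate 4 (-0.28, adjusted p 0.04735) and with the replicate block and the GC and length correction together (-0.21, adjusted p 0.02675).

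Smad4 (chromosome 18), the partner shared by the TGF-β and BMP branches, was lower in culture in both genotypes. It was at 83.4, 87.8, 86.6 and 83.0 CPM in WT Tn and at 54.3, 51.2, 52.1 and 46.5 CPM in WT Treg. Values of Aim2-/- cells were 74.9, 63.7, 64.0 and 69.4 CPM in Tn and 50.7, 53.3, 48.7 and 47.1 CPM in Treg. All Treg libraries lay below all Tn libraries. The level was 1.71-fold lower in WT (log2 fold change -0.77, SE 0.07, adjusted p 5.197e-06) and 1.37-fold lower in Aim2-/- cells (-0.46, SE 0.08, adjusted p 0.0003379). A gene on the opposite strand overlaps Smad4, and the strand setting of the counting is not given in the sources used here.

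Smad7 (chromosome 18), the inhibitory SMAD that TGF-β itself is known to induce, showed the largest fall of the 10 genes. WT values were 280.3, 295.2, 176.8 and 217.3 CPM in Tn and 41.9, 39.2, 36.4 and 31.3 CPM in Treg. Aim2-/- values were 275.0, 268.8, 215.1 and 247.1 CPM in Tn and 44.0, 39.7, 33.3 and 27.2 CPM in Treg. The highest Treg library, at 44.0 CPM, was far below the lowest Tn library, at 176.8 CPM. The fall was 6.66-fold in WT (log2 fold change -2.73, SE 0.17, adjusted p 4.247e-07) and 7.03-fold in Aim2-/- cells (-2.81, SE 0.15, adjusted p 1.655e-08). Only 5.91% of all genes in WT and 6.88% in Aim2-/- cells had a lower log2 fold change.

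Ski (chromosome 4, 155154075 to 155222592, minus strand) was high in all 4 groups. It was at 213.0, 232.4, 219.7 and 220.7 CPM in WT Tn and at 289.2, 281.3, 240.9 and 224.2 CPM in WT Treg. In Aim2-/- cells it was at 224.7, 217.8, 186.1 and 185.9 CPM in Tn and at 302.6, 283.8, 236.3 and 188.7 CPM in Treg. The states overlapped in both genotypes. The log2 fold change was 0.19 in WT (SE 0.09, 95% interval -0.01 to 0.40, adjusted p 0.07631) and 0.30 in Aim2-/- cells (SE 0.14, interval -0.01 to 0.61, adjusted p 0.06779). Both values stood close to the threshold and passed it by DESeq2 (0.24 and 0.33, adjusted p 0.02834 and 0.04118) and with a term for replicates 1 and 2 against 3 and 4 (0.19 and 0.29, adjusted p 0.04277 and 0.008199). They also passed by edgeR with the GC and length correction (0.28 and 0.39, adjusted p 0.008292 and 0.01498). Of 21 alternatives, Ski passed in 9 in WT and in 10 in Aim2-/- cells. The pairs of replicates differed. With replicates 1 and 2 alone the log2 fold change was 0.37 in both genotypes (adjusted p 0.001408 and 0.008947), and with replicates 3 and 4 alone it was 0.04 in WT and 0.16 in Aim2-/- cells (adjusted p 0.6809 and 0.2602).

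Skil (chromosome 3, 31095058 to 31122577, plus strand), the SKI-related corepressor, was even across the Treg libraries and uneven across the Tn libraries. WT Tn replicates 1 and 2 were at 188.5 and 261.6 CPM and replicates 3 and 4 at 71.3 and 73.6 CPM, whereas the 4 WT Treg libraries were at 226.0, 223.2, 225.3 and 215.2 CPM. In Aim2-/- cells Skil was at 192.7, 115.4, 80.0 and 117.8 CPM in Tn and at 231.5, 228.6, 200.6 and 181.9 CPM in Treg. The states overlapped in both genotypes. The log2 fold change was 0.55 in WT (SE 0.39, adjusted p 0.2298) and 0.73 in Aim2-/- cells (SE 0.22, adjusted p 0.0118). In WT it was 0.01 with replicates 1 and 2 alone (adjusted p 0.96) and 1.56 with replicates 3 and 4 alone (adjusted p 3.546e-06), and without WT Tn replicate 2 it was 0.95 (adjusted p 0.03027). In Aim2-/- cells the call was lost without Tn replicate 2 (0.64, adjusted p 0.05559), with replicates 1 and 2 alone (0.55, adjusted p 0.05332), with all 16 libraries in one fit (0.74, adjusted p 0.07219) and with the GC and length correction (0.49, adjusted p 0.05064). Aim2-/- replicates 3 and 4 alone gave 0.92 (adjusted p 0.0006872).

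The ratio of a pair of genes within a library does not depend on how libraries are scaled against each other. It shows how a gene moved relative to its partner, and the change of either gene alone still rests on the scaling. Reads of Tgfbr2 outnumbered those of Tgfbr1 by 17.2 to 23.2 times in the WT Tn libraries and by 16.5 to 24.9 times in the Aim2-/- Tn libraries. After culture the ratio was between 0.631 and 0.861 in WT and between 0.635 and 0.891 in Aim2-/- cells, so Tgfbr1 reads were the more numerous in all 8 Treg libraries. The change in the mean log2 ratio was -4.68 in WT and -4.74 in Aim2-/- cells. The ratio of Smad7 to Smad3 reads was 2.04 to 3.26 in WT Tn and 2.77 to 3.61 in Aim2-/- Tn, and 0.482 to 0.618 and 0.462 to 0.596 in the respective Treg groups. Smad2 over Smad3 reads remained below 1 in every library, between 0.597 and 0.836 in Tn and between 0.743 and 0.986 in Treg. The mean log2 of this ratio rose with culture by 0.36 in WT and 0.25 in Aim2-/- cells. These ratios of reads are not corrected for transcript length. Skil over Ski spanned 0.324 to 1.13 in WT Tn and 0.430 to 0.858 in Aim2-/- Tn, and narrowed to 0.782 to 0.960 and 0.765 to 0.964 in Treg.

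**Figure D3:**
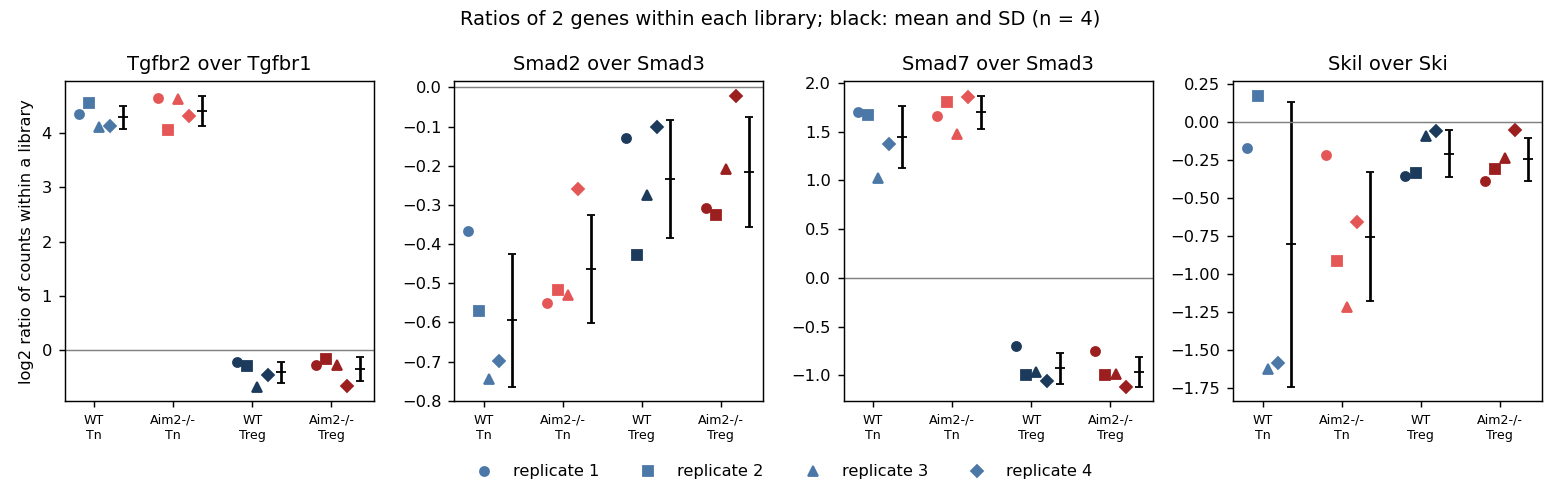
Each panel plots the log2 ratio of the counts of a pair of genes within one library, by group, with symbol shapes for replicates 1 to 4 and the mean with SD (n = 4) in black. Tgfbr2 over Tgfbr1 and Smad7 over Smad3 cross from above 0 in all Tn libraries to below 0 in all Treg libraries, and Skil over Ski is widest in WT Tn.

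Levels were set against each other between genes as CPM per kilobase of the longest coding transcript. In WT Tn, Tgfbr2 (68.0 CPM per kb) and Smad7 (56.7) led, followed by Tgfb1 (47.0), Ski (40.1), Smad4 (25.2), Skil (22.1), Tgfbr3 (20.8), Smad3 (17.1), Smad2 (7.18) and Tgfbr1 (4.81). The libraries of Tgfbr2, Smad7 and Tgfb1 overlapped in this order, as did those of Smad4, Skil and Tgfbr3, and the other neighbours were apart. In WT Treg the order was Tgfb1 (87.4 CPM per kb), Ski (46.9), Skil (33.1), Tgfbr1 (32.9), Tgfbr2 (17.8), Smad4 (15.1), Smad3 (13.9), Smad7 (8.70), Smad2 (7.39) and Tgfbr3 (6.20). Here Tgfb1, Ski and Skil were apart, as were Tgfbr1 from Tgfbr2 and Smad3 from Smad7, and the other neighbours overlapped. Tgfbr1 thus stood at rank 10 in Tn and at rank 4 in Treg, and Smad7 at rank 2 and rank 8, in both genotypes. The rank of Tgfb1 depends on the length used: per kilobase of all annotated exons (5.04 kb in place of 2.17 kb) it fell from rank 3 to 5 in WT Tn and from rank 1 to 2, behind Ski, in WT Treg, where Tgfbr1 moved from rank 4 to 3.

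The 10 genes also varied with the replicate number within groups. Replicates 1 and 2 did not overlap replicates 3 and 4 for 6 of the 10 genes in WT Tn (65.5% of all genes), for 5 in Aim2-/- Tn (39.2%), for 4 in WT Treg (49.2%) and for all 10 in Aim2-/- Treg (59.6%). Tgfbr2 and Smad7 were higher in replicates 1 and 2 in all 4 groups, with Tgfbr2 means of 695.5 against 406.0 CPM in WT Tn and 172.1 against 104.4 CPM in Aim2-/- Treg. Foxp3 moved in the same way in Treg: WT libraries held 560.5, 573.7, 495.9 and 278.5 CPM, and Aim2-/- libraries 560.4, 523.0, 329.1 and 288.2 CPM. Its part in these differences was not tested.

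The second question was whether loss of Aim2 changed any of these genes within a state. None of the 10 passed the threshold in Tn, where 0.231% of all genes did, and none in Treg, where 0.219% did. At an unadjusted p under 0.05 there was 1 of 10 in Tn, Smad4 (10.3% of all genes), and 0 of 10 in Treg (2.31%). Of the 10 genes, DESeq2 called Smad4 alone in Tn, where it called 127 of 13441 genes against 31 by edgeR. In Treg it called none of the 10, and 52 of 13221 genes against 29 by edgeR. The libraries of the genotypes did not overlap for 1 gene in Tn (6.95% of all genes) and for 0 in Treg (2.26%). Log2 fold changes of Aim2-/- over WT ran from -0.32 to 0.06 in Tn, with 9 of 10 below 0, and from -0.14 to 0.10 in Treg, with 8 of 10 below 0. The median over all genes was 0.014 in Tn and 0 in Treg. In Treg the signs depended on the pair of replicates. Of the 10 genes, Smad4 alone lay below 0 (-0.022) when replicates 1 and 2 were fitted alone. When the other pair was fitted alone, only Tgfb1 (0.08) and Tgfbr3 (0.03) lay above 0. Whether the 10 genes shifted as a set was not tested. All 10 adjusted p-values in Treg were 0.9994.

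Smad4 had the smallest p in Tn. Its levels of 83.0 to 87.8 CPM in WT all lay above the 63.7 to 74.9 CPM of Aim2-/- Tn, and the means were 85.2 ± 2.37 and 68.0 ± 5.29 CPM (SD, n = 4). Aim2-/- over WT gave -0.32 on the log2 scale (SE 0.08, 95% interval -0.50 to -0.14), with an unadjusted p of 0.002663 and an adjusted p of 0.2804 by edgeR, so it did not pass. DESeq2 gave -0.34 with an adjusted p of 0.02688. In Treg the means were 51.05 ± 3.26 and 49.9 ± 2.68 CPM, and the log2 fold change was -0.04 (SE 0.07, interval -0.19 to 0.11).

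The intervals bound the genotype differences that these libraries could hide. In Treg they were tightest for Smad2, from 0.909-fold to 1.08-fold, and for Smad4, from 0.878-fold to 1.08-fold. For Tgfbr1 the interval in Treg ran from 0.724-fold to 1.15-fold and for Tgfbr2 from 0.689-fold to 1.34-fold. For Skil in Tn it ran from 0.385-fold to 1.90-fold, so that a difference of that size was not detectable there. Within WT and Aim2-/- Tn replicates 3 and 4 alone, Skil had a log2 fold change of 0.44, and within replicates 1 and 2 alone one of -0.53, neither past the threshold.

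**Figure D4:**
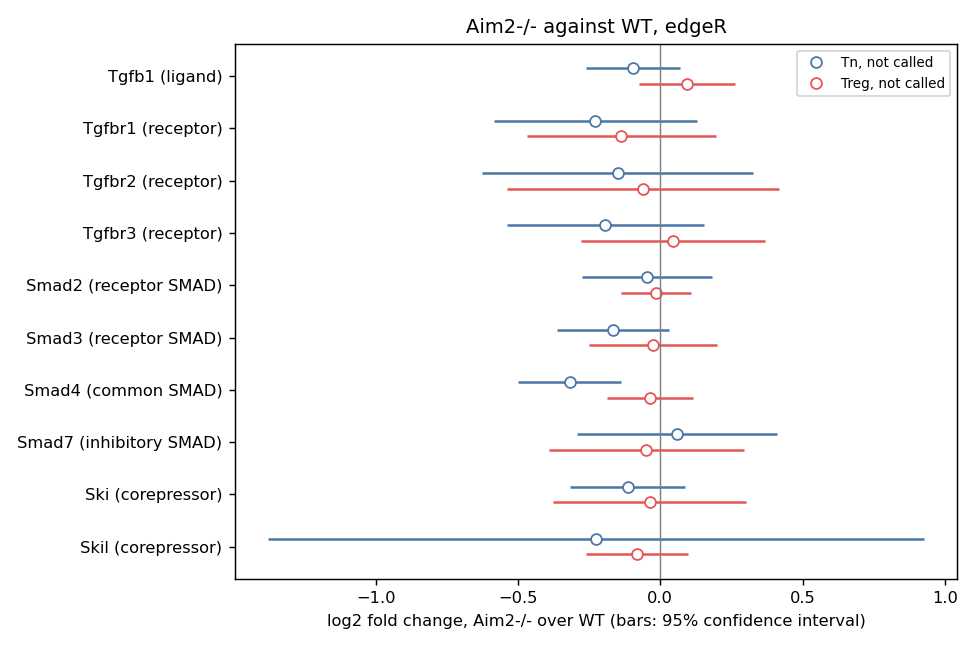
The log2 fold change of Aim2-/- over WT (horizontal axis) is plotted for each of the 10 genes in Tn (blue) and Treg (red) with 95% confidence intervals from the edgeR fit, and open points mark genes that did not pass an adjusted p of 0.05. All points are open, the interval of Smad4 in Tn (-0.50 to -0.14) is the one that does not include 0, and that of Skil in Tn is the widest.

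Whether the culture difference itself differed between genotypes was tested as an interaction on all 16 libraries. None of the 10 genes passed the threshold, which 0.0205% of all genes did, and 1 of 10, Smad4, had an unadjusted p under 0.05 (3.49% of all genes). DESeq2 also called 0 of the 10, and 10 of the 14669 genes tested. The interaction of Smad4 was 0.29 on the log2 scale (SE 0.10, unadjusted p 0.0105, adjusted p 1.0), its estimated fall in culture being smaller in Aim2-/- cells. This term rests on the same libraries as the lower Smad4 of Aim2-/- Tn and is no separate evidence. Tgfb1 had the next smallest p, with 0.20 (SE 0.11, unadjusted p 0.07692).

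Beyond the 10 genes, 61 further genes of the pathway were listed, of which 47 were tested in WT and 45 in Aim2-/- cells in the culture comparison. In WT 18 were higher and 21 lower in Treg, and in Aim2-/- cells 22 were higher and 20 lower, with 16 and 20 in the same direction in both. These counts, and those of the single lists below, stand beside 76.9% of all genes called in WT (37.7% higher, 39.2% lower) and 79.3% in Aim2-/- cells (39.1% higher, 40.2% lower). Of the genes tested, 8 in WT and 5 in Aim2-/- cells reached 10 counts in all 4 libraries of one state but not of the other, so that they entered the test mainly through the state where they were high, and these counts are a description of the lists. The genes named below for the culture comparison, except Ifng and Gzmb, passed in both genotypes by edgeR, with adjusted p of at most 0.03096. Their log2 fold changes are given first for WT and then for Aim2-/- cells.

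Of 12 genes for ligands and their activation, 6 were tested, and 4 were higher and 2 lower in both genotypes. Lrrc32, which encodes GARP, the surface anchor of latent TGF-β on Treg cells, had a log2 fold change of 5.44 and 5.04, from at most 0.91 CPM in Tn to between 9.10 and 40.1 CPM in Treg. Furin, the protease that cleaves the TGF-β precursor, rose by 2.36 and 2.63, and Nrros, another anchor of latent TGF-β, fell (-1.61 and -1.71). Thbs1, encoding an activator of latent TGF-β, entered the test through Treg, with 0 to 11 counts in WT Tn and 40 to 201 in WT Treg, and 1 to 9 and 31 to 148 in Aim2-/- cells. The ligand Tgfb3 entered it mainly through Tn, with 15 to 39 counts in WT Tn and 8 to 18 in WT Treg, and 19 to 41 and 3 to 14 in Aim2-/- cells.

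Of 10 other receptors of the family, 7 were tested in both genotypes, and 5 were higher and 2 lower. Bmpr2, the type II BMP receptor, rose by 4.25 and 4.61. The type I receptor genes Acvrl1 (-2.57 and -2.91) and Acvr1b (-1.20 and -1.26) fell. Acvr1 and Eng, which encodes endoglin, entered the test mainly through Treg: Acvr1 had 5 to 14 counts in WT Tn and 216 to 402 in WT Treg, and Eng had 7 to 25 and 36 to 124. The Aim2-/- counts were 9 to 21 and 236 to 327 for Acvr1, and 9 to 14 and 19 to 90 for Eng. Of 4 other SMADs, 2 were tested, and both fell: Smad1 (-0.49 and -0.46) and Smad5 (-0.64 and -0.56), the receptor-activated SMADs of the BMP branch.

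Of 16 regulators of receptors and SMADs, all were tested, and 4 rose and 7 fell in both genotypes. Pmepa1, an inhibitor that TGF-β is known to induce, rose by 4.37 and 3.77, and Fkbp1a, whose product holds the type I receptor inactive, by 1.47 and 1.42. Bambi, encoding a decoy receptor, fell (-3.38 and -3.77), as did the ubiquitin ligase genes Nedd4l (-1.96 and -1.95) and Rnf111 (-1.32 and -1.25). Strap, whose product binds the receptor with SMAD7, rose by 1.07 and 1.20.

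Of 6 nuclear partners, all tested, 4 were lower in both genotypes and 0 higher, among them the coactivator Crebbp (-1.34 and -1.21). The corepressor Tgif1 had log2 fold changes of -2.39 and -2.26 and Tgif2 of -1.38 and -1.43. Like Skil, they split the WT Tn libraries. Tgif1 was at 291.6 and 392.2 CPM in replicates 1 and 2 but at 29.2 and 46.9 CPM in replicates 3 and 4, and the latter overlapped the 34.0 to 38.1 CPM of WT Treg. In Aim2-/- Tn all libraries were at 117.9 CPM or more, above the 34.8 to 40.1 CPM of Aim2-/- Treg.

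Of 7 genes listed as raised by TGF-β, 3 were tested in both genotypes. Foxp3 rose by 7.41 and 7.18, while Junb fell (-3.96 and -4.08). Itgae, encoding the CD103 integrin chain, entered the test mainly through Treg, with 0 to 8 counts in WT Tn and 74 to 115 in WT Treg, and 3 to 10 and 49 to 109 in Aim2-/- cells. Of 6 genes listed as lowered by TGF-β in T cells, 5 were tested. Prf1, encoding perforin (-4.78 and -4.88), and Gata3, the Th2 factor (-2.32 and -2.37), fell in both genotypes, and Tbx21, the Th1 factor, rose in both (4.10 and 4.98). Tbx21 was uneven within Treg, from 14.7 to 127.0 CPM in WT and from 19.3 to 137.4 CPM in Aim2-/- cells. The effector genes Ifng (0.92 and 1.61) and Gzmb (1.75 and 1.80) passed in Aim2-/- cells (adjusted p 0.03406 and 0.01361) and not in WT (adjusted p 0.359 and 0.1152), and fall outside the rule for named genes. The difference between the genotypes did not pass for either gene. The edgeR interaction was 0.67 for Ifng (SE 1.20, unadjusted p 0.5828) and 0.02 for Gzmb (SE 1.33, unadjusted p 0.989). In WT, Gzmb entered the test mainly through Treg, with 7 to 36 counts in Tn and 15 to 203 in Treg.

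**Figure D5:**
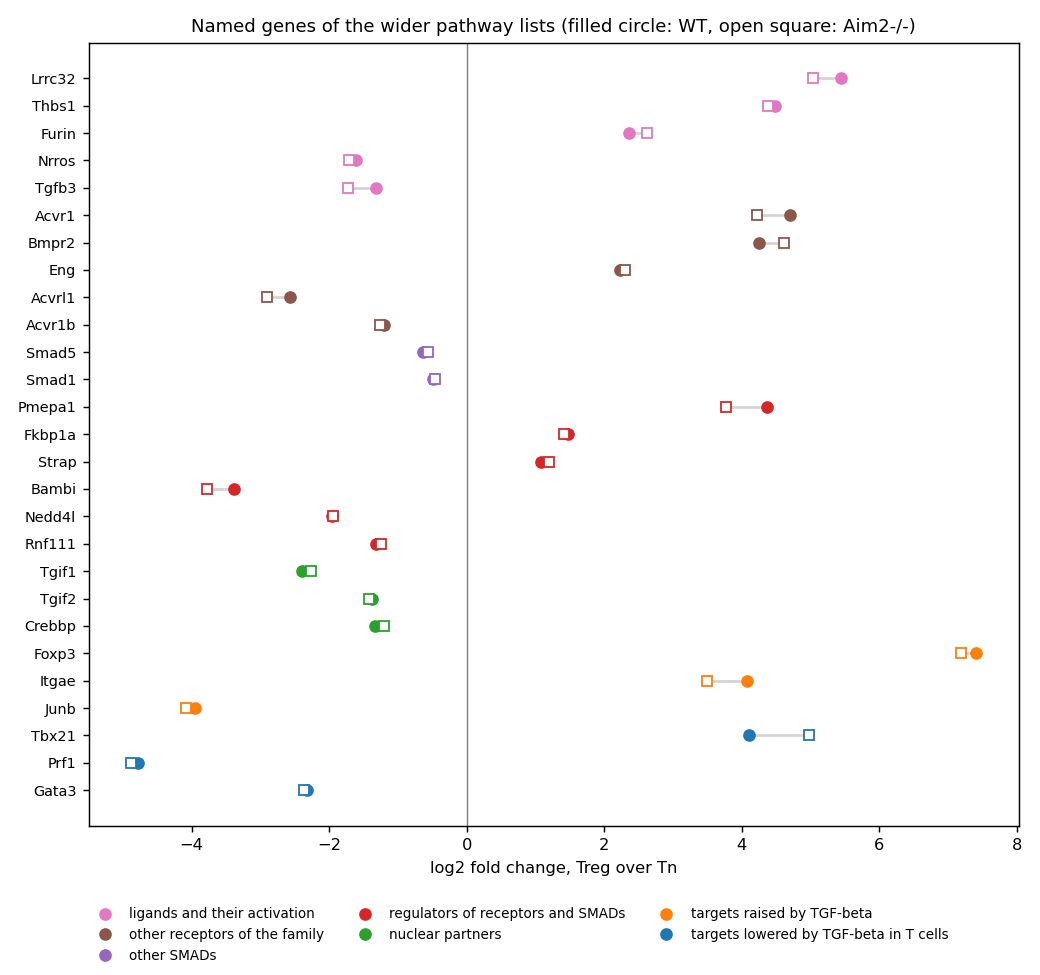
The log2 fold change of Treg over Tn is plotted for 27 further pathway genes (rows) in WT (filled circles) and Aim2-/- cells (open squares), coloured by list. Both symbols lie on the same side of 0 for each gene, from Prf1 below -4 to Foxp3 above 7, and Thbs1, Tgfb3, Acvr1, Eng and Itgae entered the test mainly through one state.

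By genotype, 0 of 44 of these further genes passed in Tn, 0 of 49 in Treg and 0 of 50 for the interaction. Over all genes tested, 0.231%, 0.219% and 0.0205% passed, so counts of 0 are no result about these lists. An unadjusted p under 0.05 by edgeR was reached by 10.3%, 2.31% and 3.49% of all genes. The smallest p in Tn belonged to Pmepa1, which was at 5.62 to 6.79 CPM in WT and 7.98 to 14.9 CPM in Aim2-/- Tn (log2 fold change 0.73, SE 0.19, unadjusted p 0.003333, adjusted p 0.3068). Bmpr2 was at 3.04 to 3.55 CPM in WT and 1.88 to 2.30 CPM in Aim2-/- Tn (-0.62, SE 0.17, unadjusted p 0.003616, adjusted p 0.3177), and Ncor1 followed with -0.31 (unadjusted p 0.02147). In Treg the smallest were Ep300, Smurf2 and Trim33, with unadjusted p of 0.05119, 0.07203 and 0.07401. For the interaction they were Pmepa1 (-0.62, unadjusted p 0.008972), Wwp1 (0.34, unadjusted p 0.07339) and Itgav (0.24, unadjusted p 0.09919).

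The genes whose centred log2 group means were most like those of the receptors were sought among 14669 genes over the 4 groups. Nearest to Tgfbr1 were Olfm2 (root mean square difference 0.0195) and Atad2 (0.0324), to Tgfbr2 Bnip3l (0.0094) and Gpr137b-ps (0.0112), and to Tgfbr3 Cntf (0.0161) and Actn1 (0.0164). The likeness rests on 4 group means, and many genes share the same 2 levels by state.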

How the data were processed

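RNA from 16 libraries was analysed, 4 per group, with groups and replicate numbers taken from the deposited titles. Names of deposited files number some libraries differently, so the replicate block and the pairs of replicates rest on the titles alone. The authors made stranded mRNA libraries, mapped the reads to GRCm38 with STAR and estimated genes with RSEM on GENCODE m15, and they deposited the expected count of 53090 genes per library, neither normalized nor filtered. Versions and the strand setting are not given in the sources used here. Expected counts were rounded to whole numbers. A gene was tested where 4 or more of the libraries compared held 10 or more counts. The test was edgeR's quasi-likelihood F test (two-sided, robust, TMM; edgeR 4.0.16, R 4.3.3) on the 8 libraries of a comparison, or all 16 for the interaction, with Benjamini-Hochberg adjustment over all genes tested and a threshold of 0.05. The standard error (SE) is the log2 fold change divided by the square root of F, and 95% intervals use the degrees of freedom of the test.

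Coordinates, lengths and GC content are from GENCODE M21, in which 52403 genes (98.7%) had an entry. Promoter sequences are from RefSeq (GRCm38.p6), and 5 of the 10 genes were matched to sequences shown or searched here. Depth was 22516424 to 34533316 counts per library. The 10 genes and the pathway lists were chosen with earlier results of these data known. From the pathway lists, up to 3 of the largest rises and falls per list among genes that passed in both genotypes, and the 3 smallest p by genotype, are named. Tests were tried on simulated counts. Alternatives were DESeq2 1.42.0, limma-voom (limma 3.58.1), RLE size factors, other filters, all 16 libraries, the replicate block, a term for replicates 1 and 2 against 3 and 4, either pair alone, a GC and length correction, and leaving out each library. Library size without TMM, and exon length for levels per kilobase, were chosen after seeing the data.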

Additional observations from a re-analysis of the deposited data

How the results depend on the processing

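The lowest count of the 10 genes in any library was 491. Of 1192 values recomputed under the alternatives, 1092 were classed as the same as in the fit reported. For a log2 fold change this means the same direction and the same side of the threshold. For a count of genes called it means a similar count, and for a ratio within a library a shift smaller than the SD. Interaction values of genes other than Smad4 and Tgfb1 were counted separately. In the culture comparisons Tgfb1, Tgfbr1, Tgfbr2, Tgfbr3, Smad4 and Smad7 passed under every alternative in both genotypes, and Smad3 in WT. The cause of the changes listed here was not tested. By genotype, 31 genes were called in Tn, and 127 by DESeq2 (with 1 of the 10 genes, Smad4), 47 without a filter on low counts, 18 with at least 10 counts in every library, 50 with all 16 libraries in one fit, 51 with a term for replicates 1 and 2 against 3 and 4, 15 with replicates 1 and 2 alone and 516 with replicates 3 and 4 alone. In Treg 29 genes were called, and 52 by DESeq2, 17 with at least 10 counts in every library, 15 with replicates 1 and 2 alone and 4 with replicates 3 and 4 alone. The interaction called 3 genes, and 10 by DESeq2 and 0 with at least 10 counts in every library (512 genes had an unadjusted p under 0.05 in the fit reported). Leaving out each library in turn gave 17 to 28 calls in Tn, 10 to 17 in Treg and 2 to 5 for the interaction.

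Replicate numbers did not pair the libraries in every comparison, since correlations of same-numbered deviations ran from 0.047 to 0.41 in Tn, from -0.011 to 0.563 in Treg, from -0.015 to 0.167 in WT and from -0.027 to 0.121 in Aim2-/- cells. With the replicate block 29 genes were called in Tn, 41 in Treg, 10352 for the culture in WT, 10859 in Aim2-/- cells and 1 for the interaction (also 1 with the GC and length correction added). Among the 10 genes, the block alone changed the call of Ski in Aim2-/- cells (0.28, adjusted p 0.01553).

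Small log2 fold changes changed sign. For Aim2-/- over WT in Tn, the GC and length correction gave Smad2 0.066, and with the replicate block Smad2 0.0683 and Skil 0.0801. Replicates 1 and 2 alone gave Smad7 -0.0679 and Ski 0.0047, and replicates 3 and 4 alone gave Tgfbr2 0.12, Smad2 0.0942 and Skil 0.44. In Treg, Smad2 was 0.0377 with the GC and length correction (0.0383 with the block), and replicates 1 and 2 alone gave Tgfbr1 0.0358, Tgfbr2 0.0654, Smad2 0.0289, Smad3 0.0625, Smad7 0.0443, Ski 0.0387 and Skil 0.0332. For the culture, Smad2 was -0.16 in WT and -0.19 in Aim2-/- cells with the correction, -0.15 and -0.19 with the block added, and -0.0928 in WT replicates 1 and 2 alone. Without one library, ranges that crossed 0 were, in Tn, Tgfbr2 -0.28 to 0.0189, Smad2 -0.11 to 0.0128, Smad7 -0.0703 to 0.17 and Skil -0.51 to 0.19. In Treg they were Tgfbr2 -0.21 to 0.0806, Tgfbr3 -0.0489 to 0.21, Smad2 -0.0433 to 0.0047, Smad3 -0.0948 to 0.0472, Smad7 -0.16 to 0.0665 and Ski -0.14 to 0.0824, and for the culture in WT, Smad2 -0.0501 to 0.068. None of these passed the threshold except Smad2 in Aim2-/- cells with the correction (adjusted p 0.02043, and 0.04087 with the block). For the interaction, 23 of 224 values of the other 8 genes changed sign and 0 passed.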
